A study of Yarrowia lipolytica with 11 samples.

Results

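A set of 48 genes of the oleaginous yeast Yarrowia lipolytica, out of 7135 in the count tables, stood high in the untreated wild type and low in every other group of an RNA-seq experiment. The groups were a mutant with 1 g/L hexanoic acid (3 libraries), the same mutant untreated (2 libraries), wild-type cells given the same dose of the acid (3 libraries) and the untreated wild type (3 libraries). The mutant is labelled as a pex10 deletion carrying a plasmid that overexpresses DGA1, so by its label every mutant library combines both changes, and no group analysed here held the deletion or the plasmid alone. The protocols describe 3 independent colonies per strain grown in YPC medium and harvested in exponential phase, so the libraries of a group stand for separate cultures. Replicate numbers follow the sample titles. The untreated mutant libraries, replicates 1 and 2 by title, carry the numbers 2 and 3 in the sample descriptions. Members were chosen by group means of the authors' normalized counts (counts scaled for library size), each plus 1. In what follows, treated means grown with hexanoic acid. A member had a ratio of treated to untreated wild type of at most 0.25 and a ratio of untreated mutant to untreated wild type of at most 0.33. Its ratio of treated to untreated mutant was over 0.5, its ratio of treated mutant to treated wild type under 2, and its untreated wild-type mean at least 50. Of the 51 genes that met these thresholds, YALI0_E23474g, YALI0_A20350g and YALI0_B21582g were left out, which gives the 48 members.

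Hexanoic acid is a medium-chain fatty acid. Yeasts activate fatty acids to acyl-CoA and break them down by beta-oxidation in peroxisomes, and Y. lipolytica is known for growing on fatty acids and alkanes and for storing surplus acyl chains as triacylglycerol in lipid bodies. PEX10 encodes a peroxin of the peroxisomal membrane that is needed for the import of matrix enzymes, and DGA1 encodes a diacylglycerol acyltransferase that makes triacylglycerol.

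All 4 group means entered the choice, so each comparison of the groups below is a description of the genes chosen and carries no test. Both the acid ratio of the wild type and the strain ratio without acid are taken against the same 3 untreated wild-type libraries. Neither the count tables nor the gene table used here gives names or functions for the locus tags of the members (0 of 7074 tagged genes matched it), and the members are called by their tags. Normalized counts are not divided by gene length, so levels are compared within a gene and not between genes. Library totals ran from 9988288 to 17519857 counts. By published assignments of tags, which no table used here tests, PEX10 (YALI0_C01023g) stood at 66.5 to 108 normalized counts in the 5 mutant libraries and 144 to 277 in the 6 wild-type libraries. It was lower in every mutant library but not absent, so these values do not show the full loss that the label states, and the sources used here do not give which part of the gene was deleted. DGA1 (YALI0_E32769g) stood at 39994 to 105582 in the mutant libraries and 1492 to 3076 in the wild-type libraries.

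**Figure D1:**
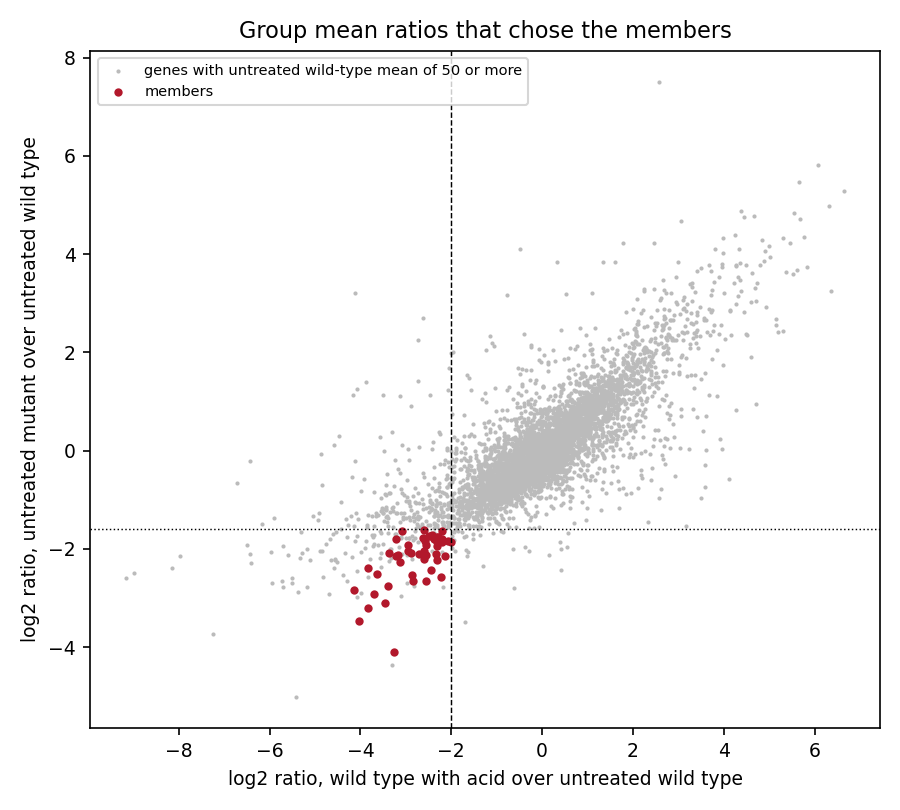
Log2 ratio of the wild type with acid over the untreated wild type (x axis) against that of the untreated mutant over the untreated wild type (y axis), for genes with an untreated wild-type mean of 50 or more (grey) and the 48 members (red), with dashed and dotted lines at ratios of 0.25 and 0.33. Both axes share the untreated wild-type libraries, and the members lie in the lower left corner because the thresholds put them there.

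The thresholds left 5730 genes by level, 378 after the acid ratio in the wild type, 149 after the strain ratio without acid, 54 after the acid ratio in the mutant and 51 after the strain ratio with acid. The acid ratio in the mutant was the threshold that removed most near members: 89 genes met all the others and had a ratio of treated to untreated mutant of 0.5 or less. Another 54 genes failed only the strain ratio without acid and 28 only the acid ratio in the wild type, while the level and the strain ratio with acid each removed 3. Several thresholds had genes close to them on both sides. YALI0_F07821g was kept with a treated to untreated mutant ratio of 0.504, and YALI0_D09933g fell outside at 0.499. YALI0_E29887g was kept with a wild-type acid ratio of 0.247 against 0.251 for YALI0_E03410g, and YALI0_B06919g with a strain ratio of 0.324 against 0.332 for YALI0_F13453g. The strain ratio with acid reached 1.91 in YALI0_B12188g, and the nearest gene outside, YALI0_D14872g, had 2.16. The lowest untreated wild-type mean of a member was 66.1 in YALI0_B01771g, and YALI0_C19558g, at 27.4, was the nearest gene below the minimum.

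As a set, the members took 0.285%, 0.303% and 0.297% of all gene counts in the mutant with acid, 0.486% and 0.357% in the untreated mutant, 0.246%, 0.254% and 0.221% in the wild type with acid, and 1.56%, 2.09% and 1.72% in the untreated wild type. The 3 untreated wild-type libraries stood apart from the other 8, and among those 8 the untreated mutant was highest. YALI0_D13104g alone supplied 28.1% of the summed untreated wild-type level of the members, and the 6 members with the highest level supplied 67.3%. Without YALI0_D13104g the shares were 0.225% ± 0.0220 in the mutant with acid (SD, n = 3), 0.314% ± 0.0627 in the untreated mutant (n = 2), 0.185% ± 0.0169 in the wild type with acid (n = 3) and 1.29% ± 0.128 in the untreated wild type (n = 3). The order of the groups was thus the same with and without that gene.

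**Figure D2:**
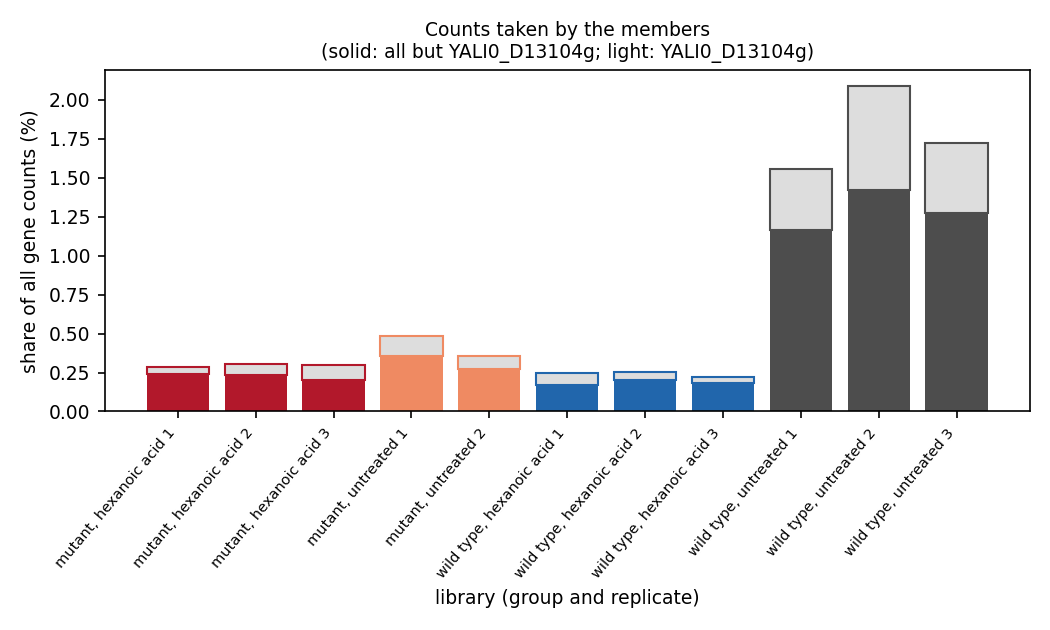
Share of all gene counts (y axis, percent) taken by the members in each library (x axis, group and replicate), with YALI0_D13104g as the light part of each bar. The untreated wild-type bars reach 1.56% to 2.09%, and no other bar exceeds 0.486%.

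Seen gene by gene, 47 of the 48 members had all 3 untreated wild-type libraries above every library of the other groups, and 18.8% of the 6301 genes tested showed that order. This count follows from how the members were chosen. The exception was YALI0_E27852g, named for that reason and not by the rule for named genes. It stood at 19.3, 11.4 and 21.6 normalized counts in the mutant with acid, 28.2 and 17.4 in the untreated mutant, 43.8, 18.03 and 25.3 in the wild type with acid, and 274, 40.6 and 105 in the untreated wild type. Its untreated wild-type libraries spread widely, and the second one lay below the first library of the wild type with acid. All 48 members passed the expression filter and were called lower with acid in the wild type and lower in the untreated mutant than in the untreated wild type (edgeR quasi-likelihood test, Benjamini-Hochberg adjusted over all genes). The same calls in those directions were made for 28.0% and 15.3% of all genes tested. These contrasts chose the members, so nothing is read from the counts. The median log2 difference was −2.60 for acid in the wild type (range −4.14 to −2.02), against −0.01 over all genes tested. For the untreated mutant against the untreated wild type it was −2.09 (range −4.09 to −1.63), against −0.04 over all genes tested.

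**Figure D3:**
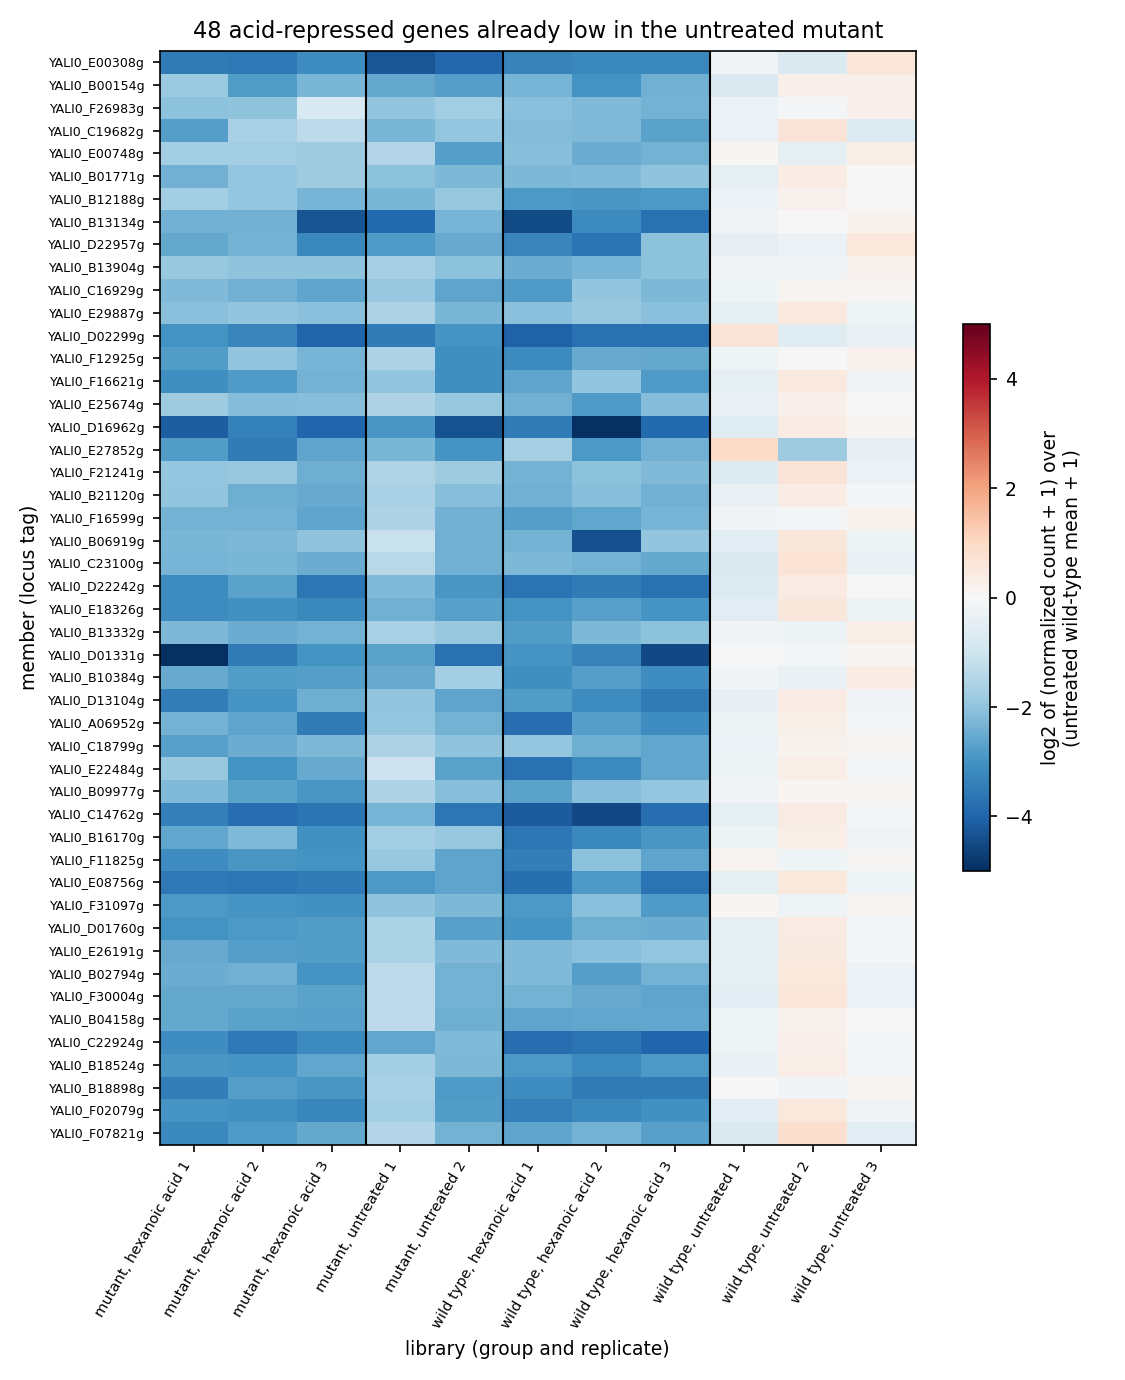
Log2 of each member's normalized count plus 1 over its untreated wild-type mean plus 1 (colour), in the 11 libraries (columns), with the 48 members (rows) ordered by the ratio of treated to untreated mutant, highest at the top. The 3 untreated wild-type columns are pale, and the column of untreated mutant replicate 1 is paler than that of replicate 2 in 38 of the 48 rows.

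The 8 members with the highest untreated wild-type level were YALI0_D13104g, YALI0_F11825g, YALI0_B21120g, YALI0_B13134g, YALI0_E22484g, YALI0_B09977g, YALI0_B13904g and YALI0_B12188g. YALI0_D13104g stood at 6147, 8724 and 12338 normalized counts in the mutant with acid, 17040.3 and 10932 in the untreated mutant, 9821, 7602 and 5844 in the wild type with acid, and 50365, 90204 and 62063 in the untreated wild type. Treated mutant and treated wild-type libraries overlapped, and the untreated mutant lay between them and the untreated wild type for its first library only. With acid the wild type was 8.71-fold lower than without it, and the untreated mutant was 4.83-fold lower than the untreated wild type. Log2 changes from the fit across all genes were −3.12 ± 0.35 and −2.26 ± 0.40 (± SE).

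YALI0_F11825g stood at 3468, 3994 and 3799 normalized counts in the mutant with acid, 8217 and 4887 in the untreated mutant, 2774, 7297 and 4903 in the wild type with acid, and 32990.1, 25856 and 31671 in the untreated wild type. The treated wild-type libraries spanned a wider range than the treated mutant ones and contained all of them, and both untreated mutant libraries lay above the treated mutant. YALI0_B21120g stood at 5707, 4146 and 3975 normalized counts in the mutant with acid, 7362 and 5113 in the untreated mutant, 4286, 5103 and 4244 in the wild type with acid, and 17346, 28876 and 21441 in the untreated wild type, and its means with acid were 4609 ± 955 in mutant and 4544 ± 484 in wild-type libraries (SD, n = 3 each). Its ratio of treated mutant to treated wild type was 1.01, while the untreated mutant kept 27.7% of the untreated wild-type level.

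YALI0_B13134g had one of the lowest values of both ratios and a wide spread in the mutant. It stood at 4189, 4220.5 and 1115 normalized counts in the mutant with acid, 1486 and 4409 in the untreated mutant, 1007, 2434 and 1663 in the wild type with acid, and 19394, 21918 and 25236 in the untreated wild type. The third treated mutant library and the first untreated mutant library were several-fold below the others of their groups, so the libraries of the treated mutant (3175 ± 1784, SD, n = 3) and of the untreated mutant (2947 ± 2067, n = 2) overlapped. Even the highest library outside the untreated wild type stood far below the lowest one inside it. The untreated mutant was 7.52-fold lower than the untreated wild type, 5.03-fold lower without its replicate 1 and 14.9-fold lower without its replicate 2.

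YALI0_E22484g stood at 2984, 1390.4 and 1929 normalized counts in the mutant with acid, 5406 and 1732 in the untreated mutant, 841, 1217 and 1867 in the wild type with acid, and 9278, 13937 and 10312 in the untreated wild type. Its first untreated mutant library was 3.12-fold above the second, the largest such excess among the members, and only the first stood clear of all 6 libraries with acid. YALI0_B09977g stood at 1754, 1249 and 1079 normalized counts in the mutant with acid, 2788 and 1845 in the untreated mutant, 1281, 1860.3 and 2092 in the wild type with acid, and 7208, 8651 and 8387 in the untreated wild type, with both untreated mutant libraries above the treated mutant and the treated groups overlapping.

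YALI0_B13904g and YALI0_B12188g had all treated mutant libraries above all treated wild-type libraries, an order seen in 19.9% of all genes tested. YALI0_B13904g stood at 1949.9, 1797 and 1785 normalized counts in the mutant with acid, 2329 and 1741 in the untreated mutant, 1307, 1439.6 and 1736 in the wild type with acid, and 6688, 6623 and 8529 in the untreated wild type. All 3 treated mutant libraries lay just above the highest treated wild-type library, and the untreated mutant overlapped with the treated mutant. The fit did not call this gene between the treated strains (edgeR, log2 0.32 ± 0.18, SE). YALI0_B12188g stood at 2068, 1746 and 1320.5 normalized counts in the mutant with acid, 1373 and 1776 in the untreated mutant, 899.9, 881 and 905 in the wild type with acid, and 5472, 7679.5 and 6824 in the untreated wild type. Its treated wild-type libraries were close together, all treated mutant libraries lay above them, and the ratio of the means was 1.91. It was the 1 member called higher in the mutant with acid than in the wild type with acid (edgeR, log2 0.95 ± 0.20), a call made for 5.0% of all genes tested. The call was lost without treated mutant replicate 2 and without treated wild-type replicate 2 or 3 (0 members called in each of these fits).

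**Figure D4:**
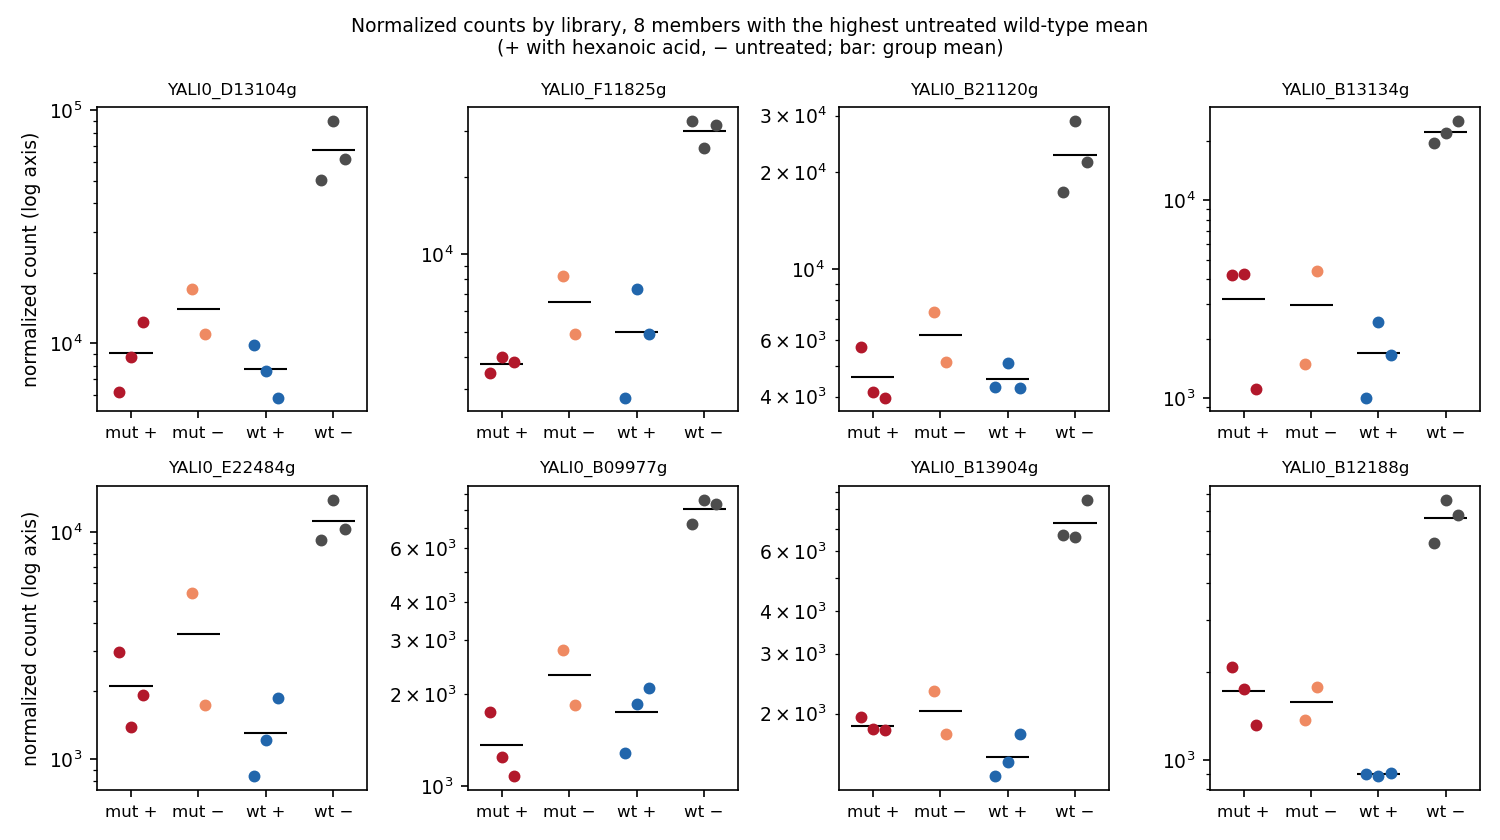
Normalized counts (y axes, log scale) of the 8 members with the highest untreated wild-type mean, by group (x axes: mutant with and without acid, then wild type with and without acid), with 1 point per library and a bar at the group mean. In each panel the 3 untreated wild-type points lie above all others, and in YALI0_B12188g the 3 treated wild-type points (881 to 905) lie below all treated mutant points (1320 to 2068).

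The deepest falls with acid in the wild type, beside YALI0_B13134g at 13.0-fold, were seen in YALI0_C14762g (17.7-fold), YALI0_D16962g (16.3-fold), YALI0_D02299g (14.2-fold), YALI0_C22924g (14.2-fold) and YALI0_D22242g (12.4-fold). The rule held the untreated mutant mean of every member low relative to the untreated wild type. No link between that level and the depth of the fall is therefore read here. From YALI0_C14762g to YALI0_D22242g, in the same order, the untreated mutant mean stood at 14.0%, 9.03%, 10.9%, 18.995% and 17.5% of the untreated wild type. For YALI0_C14762g this level was 19.8% in untreated mutant replicate 1 and 8.20% in replicate 2, and for YALI0_D16962g it was 13.2% and 4.89%. YALI0_C14762g stood at 63.1, 48.3 and 53.1 normalized counts in the mutant with acid, 134 and 54.9 in the untreated mutant, 36.7, 28.6 and 47.5 in the wild type with acid, and 481, 906 and 655 in the untreated wild type, and its second untreated mutant library was close to the treated mutant while the first was well above it. YALI0_D02299g stood at 238, 189 and 115 normalized counts in the mutant with acid, 164 and 243 in the untreated mutant, 112, 139.7 and 141 in the wild type with acid, and 2932, 1231 and 1457 in the untreated wild type, with 1 untreated wild-type library about as high as the other two together and overlapping libraries in the treated and the untreated mutant. YALI0_C22924g stood at 135, 98.3 and 127 normalized counts in the mutant with acid, 191 and 251 in the untreated mutant, 81.5, 88.7 and 73.8 in the wild type with acid, and 1005, 1384 and 1109.6 in the untreated wild type, and its 4 groups followed each other without overlap. The order of its groups was treated wild type, treated mutant, untreated mutant and untreated wild type, from low to high. YALI0_D16962g, with single-digit values in most libraries outside the untreated wild type, is limited by counting error there. It stood at 4.28, 7.90 and 4.91 normalized counts in the mutant with acid, 11.1 and 3.49 in the untreated mutant, 7.13, 1.50 and 5.27 in the wild type with acid, and 59.0, 119 and 94.0 in the untreated wild type, and its means with acid were 5.70 ± 1.93 in mutant and 4.64 ± 2.87 in wild-type libraries (SD, n = 3 each).

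The untreated mutant mean was lowest relative to the untreated wild type in YALI0_E00308g (in replicate 2 alone, YALI0_D16962g was lower, at 4.89% against 6.52%). YALI0_E00308g stood at 10.7, 10.5 and 14.7 normalized counts in the mutant with acid, 6.05 and 7.84 in the untreated mutant, 12.2, 13.5 and 13.7 in the wild type with acid, and 118, 82.2 and 204 in the untreated wild type. This was the only member with all untreated mutant libraries below all treated wild-type libraries, and the only one with all treated mutant libraries above the untreated mutant. Those orders were seen in 24.4% and 26.2% of all genes tested. The untreated mutant was 17.1-fold lower than the untreated wild type, against 9.58-fold for acid in the wild type. The untreated mutant value rests on 6 and 9 raw counts, so counting error limits these ratios. YALI0_D01331g was 8.62-fold lower in the untreated mutant than in the untreated wild type. The difference was 13.2-fold without untreated mutant replicate 1 and 6.39-fold without replicate 2. It stood at 0, 5.27 and 7.86 normalized counts in the mutant with acid, 10.1 and 4.36 in the untreated mutant, 8.15, 6.01 and 2.11 in the wild type with acid, and 69.0, 65.4 and 75.1 in the untreated wild type. Its untreated wild-type libraries were close together, and the first treated mutant library had 0 counts, which allows up to 3.21 normalized counts (3 counts, counting error only).

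How far the untreated mutant went toward the level of the treated wild type varied among the members. On the log2 scale its difference from the untreated wild type was 53.2% to 126% of the acid response of the wild type, with a median of 78.1%. The median was 69.7% with replicate 1 alone and 90.8% with replicate 2 alone. In 44 members the untreated mutant mean stayed above the treated wild-type mean and in 4 it lay below. The rule allowed a ratio to the untreated wild type of 0.33 for the untreated mutant and only 0.25 for the treated wild type. It thus shaped this order and the percentages above. All untreated mutant libraries exceeded all treated wild-type libraries in 21 members, where 23.7% of all genes tested showed that order. The smallest percentage of the means belonged to YALI0_E22484g, whose value was 33.9% with replicate 1 alone and 86.9% with replicate 2 alone. YALI0_F16621g (99.4%), YALI0_B01771g (100.5%) and YALI0_B00154g (104%) had about the same mean in the untreated mutant as in the treated wild type, although that of YALI0_F16621g was 81.5% with replicate 1 alone and 125% with replicate 2 alone. YALI0_B01771g stood at 11.8, 16.7 and 18.7 normalized counts in the mutant with acid, 15.1 and 13.1 in the untreated mutant, 13.2, 13.5 and 15.8 in the wild type with acid, and 47.0, 85.7 and 65.6 in the untreated wild type, and the 8 libraries outside the untreated wild type covered a narrow range. YALI0_B06919g, the member with the highest strain ratio without acid, stood at 16.1, 16.7 and 19.6 normalized counts in the mutant with acid, 37.3 and 14.8 in the untreated mutant, 15.3, 3.01 and 20.04 in the wild type with acid, and 57.0, 121 and 69.5 in the untreated wild type, and its second treated wild-type library was far below the other two. Its untreated mutant level was 45.9% of the untreated wild type in replicate 1 and 18.9% in replicate 2.

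In the mutant, acid changed the members little by construction of the rule, and most values lay on the low side of no change. The treated mutant mean was below the untreated mutant mean in 40 members and above it in 8, with a median log2 difference of −0.58 (range −0.99 to 0.71), against −0.02 over all genes tested. Without untreated mutant replicate 1 this median was −0.18, and without replicate 2 it was −0.81. The ratio was under 0.7 in 27 members. All untreated mutant libraries lay above all treated mutant libraries in 19 members, an order seen in 23.0% of all genes tested. The fit across all genes called 5 members lower and none higher (edgeR), with 9.7% and 7.95% of all genes called in those directions. At an unadjusted p under 0.05 there were 18 lower and 0 higher, and DESeq2 called 7 and 0. The shares of all genes at these other settings are not given here, so neither count is set against the 9.7%. The 5 were YALI0_B04158g, YALI0_B18524g, YALI0_E26191g, YALI0_C22924g and YALI0_F31097g, of which all but YALI0_C22924g are named for these calls after their values were seen. The count was 1 when the mutant libraries alone were fitted, and 0 with the replicate number (by title or by description) added as a block. It was 0 without treated mutant replicate 2, 1 without untreated mutant replicate 1, 11 without untreated mutant replicate 2 or untreated wild-type replicate 2, and 2 or 3 without any 1 of the other 7 libraries.

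YALI0_B04158g, a called member, stood at 715, 662 and 642 normalized counts in the mutant with acid, 1679 and 774 in the untreated mutant, 677, 691 and 685 in the wild type with acid, and 3599, 4823 and 4189 in the untreated wild type, and its treated groups were nearly the same in both strains (673 ± 37.9 in mutant and 684 ± 7.26 in wild-type libraries, SD, n = 3 each). YALI0_B18524g stood at 352, 342 and 431 normalized counts in the mutant with acid, 818 and 560.2 in the untreated mutant, 359.8, 292 and 363 in the wild type with acid, and 2081, 3316 and 2482 in the untreated wild type, and its treated groups overlapped. YALI0_B04158g had a ratio of treated to untreated mutant of 0.401 against untreated mutant replicate 1 alone and 0.870 against replicate 2 alone. For YALI0_B18524g these ratios were 0.460 and 0.670. The lowest ratios of treated to untreated mutant were in YALI0_F07821g (0.504), YALI0_F02079g (0.525) and YALI0_B18898g (0.53). Against untreated mutant replicate 2 alone, the ratios of YALI0_F02079g and YALI0_B18898g were 0.810 and 0.875. YALI0_F07821g stood at 376, 494 and 592 normalized counts in the mutant with acid, 1251 and 684 in the untreated mutant, 559.5, 669 and 523 in the wild type with acid, and 2101, 6028 and 2328 in the untreated wild type, and its second untreated wild-type library was more than double the other two. Without that library its fall with acid in the wild type was 3.79-fold, against 5.96-fold, and the untreated mutant was 2.29-fold lower, against 3.60-fold. YALI0_F02079g stood at 248, 237 and 204 normalized counts in the mutant with acid, 593 and 284 in the untreated mutant, 183, 209 and 236 in the wild type with acid, and 1302, 2825 and 1717 in the untreated wild type, with its second untreated mutant library only slightly above the treated mutant.

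At the other end, the ratio of treated to untreated mutant was highest in YALI0_E00308g (1.64), YALI0_B00154g (1.31) and YALI0_F26983g (1.30). For YALI0_E00308g it rests on 6 and 9 raw counts in the untreated mutant. YALI0_B00154g stood at 228, 119 and 171 normalized counts in the mutant with acid, 141 and 121 in the untreated mutant, 164, 102 and 156 in the wild type with acid, and 505, 984 and 997 in the untreated wild type, and its 8 libraries outside the untreated wild type overlapped across groups. YALI0_F26983g stood at 234, 239 and 576 normalized counts in the mutant with acid, 245 and 293 in the untreated mutant, 226, 212 and 189.9 in the wild type with acid, and 798, 947 and 1175 in the untreated wild type. A single treated mutant library set its high mean: without it the ratio of treated to untreated mutant was 0.880, below 1.

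With acid in both strains, the members were at similar levels, in part by construction of the rule, which asked for a ratio under 2. The median log2 difference of the mutant from the wild type was 0.13 (range −0.71 to 0.93), against 0.01 over all genes tested, with 29 members higher in the mutant and 19 lower. It was 0.082 to 0.11 without treated mutant replicate 1 or 2 or treated wild-type replicate 1 or 2, and 0.21 without treated wild-type replicate 3. The ratio was over 1.5 in 6 members and under 0.8 in 5. All treated mutant libraries lay above all treated wild-type libraries in 6 members, against 19.9% of all genes tested, and below them in 2, against 17.6%. The 6 were YALI0_B13904g, YALI0_B12188g, YALI0_C22924g, YALI0_F26983g, YALI0_C14762g and YALI0_E00748g, and the 2 were YALI0_E18326g and YALI0_E26191g. The last 3 of these tags lie outside the rule for named genes. YALI0_E00748g stood at 539, 530.2 and 511 normalized counts in the mutant with acid, 642 and 261 in the untreated mutant, 399.5, 309.6 and 341 in the wild type with acid, and 1809, 1241 and 2203 in the untreated wild type, and its untreated mutant libraries differed enough to lie on either side of the treated mutant. No member was called lower in the mutant (edgeR adjusted p under 0.05, 0 of 48), where 5.68% of all genes were. At an unadjusted p under 0.05 there was 1 such member, and DESeq2 called 0, with no share of all genes given at these settings.

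What the thresholds did not use was the spread between libraries of 1 group, and the 2 untreated mutant libraries differed across the members. These values are given as a description. Replicate 1 was above replicate 2 in 38 of 48 members, against 48.2% of all genes tested, with a median log2 difference of 0.61 (range −1.57 to 1.64) against −0.02 over all genes tested. It was at least 2-fold above in 15 members (31.2%), against 6.67% of all genes tested. The median member stood at 28.9% of its untreated wild-type mean in replicate 1 and at 18.95% in replicate 2. In the 3 treated mutant libraries the medians were 16.9%, 15.8% and 15.8%, and in the 3 treated wild-type libraries 14.2%, 15.2% and 16.3%. Replicate 1 lay above all 6 libraries with acid in 35 members and replicate 2 in 14, while replicate 2 fell within the range of those 6 in 31. All genes tested gave similar shares for both libraries, 23.9% for replicate 1 and 23.3% for replicate 2.

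YALI0_B13134g, YALI0_E22484g and YALI0_F12925g had the largest differences between these libraries. YALI0_F12925g stood at 9.63, 17.6 and 13.8 normalized counts in the mutant with acid, 24.2 and 7.84 in the untreated mutant, 7.13, 12.02 and 11.6 in the wild type with acid, and 62.0, 71.6 and 84.6 in the untreated wild type, so that replicate 2 lay among the libraries with acid and replicate 1 above them. YALI0_B13134g was the only member with replicate 2 at least 2-fold above replicate 1. Taken alone, replicate 1 exceeded 33% of the untreated wild-type mean in 17 members, and replicate 2 in none. The rule held the mean of these libraries to at most 33%, so where replicate 1 exceeded it replicate 2 could not. Of the 330 other genes that passed the level and the acid ratio in the wild type, 294 had replicate 1 higher, with a median log2 difference of 1.09. Neither of those thresholds uses the untreated mutant, but leaving out the members does. In the 89 genes that missed only the acid ratio in the mutant, the median log2 difference was 1.48, with replicate 1 higher in 84. In the 54 that missed only the strain ratio without acid it was 0.92, with replicate 1 higher in 46. Both of these near lists lie within the 330 and were chosen by ratios that contain the untreated mutant mean. Differences between the lists were not tested.

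**Figure D5:**
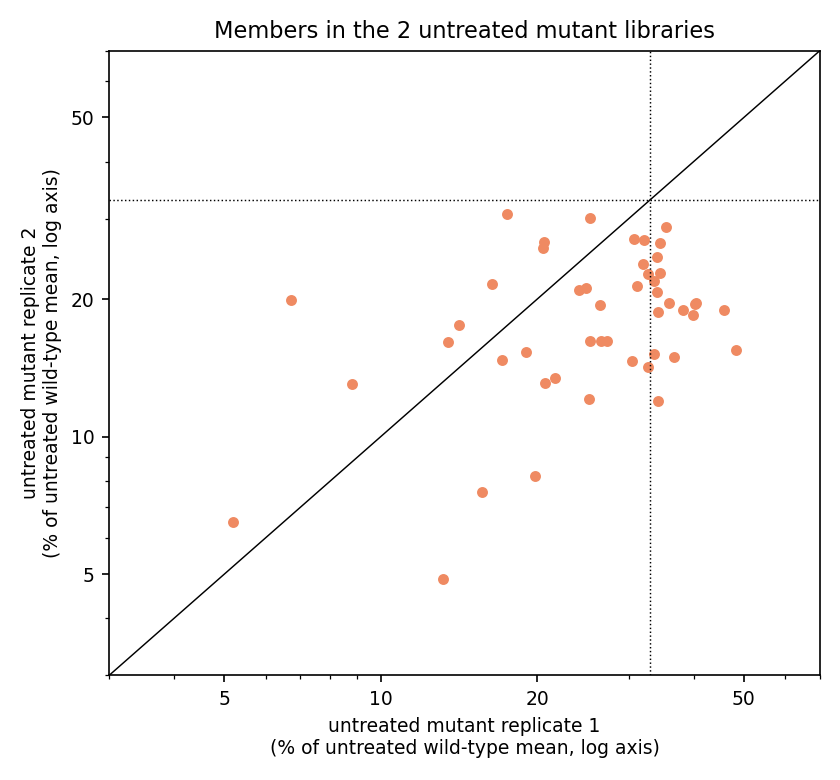
Level of each member in untreated mutant replicate 1 (x axis) against replicate 2 (y axis), both as percent of its untreated wild-type mean on log scales, with a line of equality and dotted lines at 33%. Most points (38 of 48) lie below the line, and 17 lie to the right of the vertical dotted line while none lies above the horizontal one. The rule held the mean of the plotted libraries to at most 33%, so no point could lie past both dotted lines.

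The untreated wild-type libraries varied as well. Replicate 1 was the lowest of the 3 in 36 members and replicate 2 the highest in 31. The median log2 excess of replicate 2 over replicates 1 and 3 was 0.48 in the members and 0.01 over all genes tested. In the 330 other genes that passed the level and the acid ratio in the wild type it was 0.02. Both ratios to the untreated wild type use the mean of these libraries, so the rule can favour genes with 1 high library there. How far this shaped the counts and the spread was not tested. The median SD of log2 values within a group was 0.42 in the untreated wild type for the 48 members and 0.27 for the 5682 other genes tested at a mean of 50 or more in that group. In the untreated mutant it was 0.44 for 39 members and 0.21 for 5809 other genes. With acid the members' spread was closer to that of other genes, at 0.22 against 0.19 in the mutant (39 members) and 0.24 against 0.22 in the wild type (38 members). Across the members, the excess of untreated mutant replicate 1 over 2 was weakly related to the excess of untreated wild-type replicate 2 over the other two (Pearson r = 0.24, Spearman rho = 0.24, n = 48 genes that share these libraries, given as a description). Over all genes tested r was 0.11.

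Because each library entered the choice, the members were chosen again without each library in turn and then read in the library left out, which the new choice did not use. The other libraries of the comparison were still shared. Without treated mutant replicates 1, 2 or 3, the rule found 52, 47 and 46 genes, and 41, 42 and 36 of them also met both ratios of the treated mutant in the library left out. Without treated wild-type replicates 1, 2 or 3 it found 50, 49 and 50 genes, and 45, 44 and 42 of them met the acid ratio of 0.25 there. The untreated libraries moved the number of genes more. Without untreated mutant replicate 2 the rule found 30 genes, 25 of them members, and 26 of the 30 met the strain ratio of 0.33 in replicate 2. Without untreated mutant replicate 1 it found 182 genes, of which 47 were members, and 46 of the 182 met the strain ratio in replicate 1. In replicate 1 the 182 genes had a median of 45.5% of the untreated wild-type mean, against 19.6% in replicate 2, which chose them. Without untreated wild-type replicates 1, 2 or 3 it found 73, 37 and 64 genes, and 26, 32 and 36 of them met both ratios against the library left out. The share of chosen genes past the thresholds in the library left out was 78.3% to 90.0% for the 6 treated libraries and 25.3% to 86.7% for the 5 untreated ones.

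The locus tags carry a chromosome letter, and their numbers rise along the chromosome. Of the 48 members, 15 (31.2%) had tags of chromosome B, which holds 14.4% of the tagged genes in the tables. Chromosome A had 1 member (2.08%, against 11.96% of genes), C 6, D 7, E 9 and F 10. Only 1 pair of members were direct neighbours by tag, YALI0_F16599g and YALI0_F16621g, and allowing 1 gene between members added no other. YALI0_F16599g stood at 606, 605 and 501 normalized counts in the mutant with acid, 1051 and 579 in the untreated mutant, 451, 511 and 615 in the wild type with acid, and 2821, 2915 and 3516 in the untreated wild type. YALI0_F16621g stood at 39.6, 46.5 and 65.8 normalized counts in the mutant with acid, 84.7 and 40.1 in the untreated mutant, 53.0, 85.7 and 46.4 in the wild type with acid, and 240.0, 477 and 299.5 in the untreated wild type, and both had the first untreated mutant library above the second. Reads of overlapping genes cannot be told apart here, since the sources used do not give the strand setting of the counting. The other direct neighbours of the members, which the rule did not choose, numbered 94, of which 88 were tested. With acid in the wild type, 30 of the 88 (34.1%) were called lower and 26 (29.5%) higher, against 28.0% and 28.5% of all genes tested. Between the untreated strains, 19 (21.6%) were called lower and 19 (21.6%) higher in the mutant, against 15.3% and 22.8%. The neighbours' median log2 changes were −0.05 and −0.18. The members' were −2.60 and −2.09 by group means, and −2.60 and −2.08 in the edgeR fit.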

How the data were processed

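RNA-seq libraries (directional kit, Illumina NovaSeq, per the labels' protocols) gave whole-number counts per gene, deposited by the authors. The authors' normalized values are a signal in which, on comparing both deposited tables, a library's counts were all scaled by a common size factor. The submitters' processing notes name DESeq2 1.32.0, HTSeq 0.11.0, SAMtools 1.9, STAR 2.7.9a and FastQC 0.11.7, with no parameters. No source used here gives a genome build, annotation or strand setting. The gene table used for names (assembly ASM176148v1) matched no tag.

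The members and lists were chosen with earlier results of these data known. Levels and ratios come from the deposited normalized counts, with 1 added to each group mean. Across all genes, raw counts were fitted with edgeR 4.0.16 on limma 3.58.1 and R 4.3.3 (TMM scaling, filterByExpr, 6301 genes, 1 mean per group over all 11 libraries, quasi-likelihood F test with robust=TRUE, Benjamini-Hochberg adjusted p under 0.05). Each SE was taken from the log2 change and the root of its F value. The fit was tested on simulated data. DESeq2 1.42.0 was an alternative. Between libraries of 1 group, counts differed far beyond sampling noise (chi-square per degree of freedom at least 39.5), so each library counted as 1 replicate. Named genes were the 8 members with the highest untreated wild-type mean, the 6 lowest in each ratio to the untreated wild type, the 3 lowest and 3 highest in the ratio of treated to untreated mutant, the 3 whose untreated mutant libraries differed most, neighbouring members, and the gene nearest each threshold on both sides. Gene order by locus tag, the values with each untreated mutant library alone and the comparison with other acid-repressed genes were chosen after seeing the data. Names, promoter and protein features and described classes were planned and not analysed here, because the identifiers did not match.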

Additional observations from a re-analysis of the deposited data

Results flagged for a closer look

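The acid responses of the 2 strains differed in 44 of the 48 members, each with a smaller fall in the mutant than in the wild type (edgeR test of the difference between the responses, adjusted p under 0.05). Of the 6301 genes tested, 630 were called in that direction. The rule asked for a strong fall in the wild type and a weak one in the mutant, so the difference is what chose the members and is no separate result. The 4 members not called were YALI0_F07821g, YALI0_E27852g, YALI0_B06919g and YALI0_D01331g, with log2 differences of 1.59 ± 0.58, 1.86 ± 0.97, 2.06 ± 0.79 and 3.02 ± 1.04 (± SE). Groups of 3 or fewer libraries are too small to single out a library by its gap to the others.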

How the results depend on the processing

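The rule found 48 genes on the deposited values, and 41 to 49 under the other scalings, added values, level minimums and group medians. Leaving out 1 library gave 30 to 182 genes: 182 without untreated mutant replicate 1, 30 without untreated mutant replicate 2 and 73 without untreated wild-type replicate 1. The members' median log2 difference in the mutant, acid against none, was −0.18 without untreated mutant replicate 1 and −0.81 without replicate 2, against −0.58. Between the strains with acid it was 0.29 with total counts only, which moved the median of all genes tested to 0.16, against 0.01 (members relative to it 0.13, against 0.12), and 0.082 to 0.21 without single libraries, against 0.13. The number of members called lower with acid in the mutant (5) was 0 with a replicate block by title or by description number (13 at an unadjusted p under 0.05 in each, edgeR), 1 with the mutant libraries fitted alone, and 0 to 11 without single libraries. It was 0 without treated mutant replicate 2 (10 at an unadjusted p under 0.05), 1 without untreated mutant replicate 1, and 11 without untreated mutant replicate 2 or untreated wild-type replicate 2. It was 2 without treated mutant replicate 1 or 3 or untreated wild-type replicate 3, and 3 without untreated wild-type replicate 1 or any treated wild-type library. The number called higher in the mutant with acid than in the wild type with acid (1) was 2 with the treated libraries fitted alone and 0 to 1 without single libraries. The calls for acid in the wild type and for the untreated strains stayed within 1.5 times under all 18 alternatives each, at 40 to 48 members, where 40 came from a filter of at least 10 CPM in 2 libraries that left fewer members to test. The calls of the response difference did so under all 17, at 34 to 47. With the block they were 48, 47 and 42 (title number) or 45 (description number), and the block changed no other count by over 1.5 times. For libraries with the same number, r of deviations was −0.42 to 0.35 over 15 pairs in each numbering, with both signs. In groups of 2 or 3 libraries these values cannot show whether the numbers pair libraries. Of the values of single named genes under the alternatives, 1424 moved by less than the spread between replicates and 2 by more. Of all 1426, 35 changed sign, 17 for acid in the mutant and 18 between the strains with acid, none of them a called value, and 0 for acid in the wild type or between the untreated strains. For members with under 20 normalized counts outside the untreated wild type, counting error limits the ratios. The cause of these shifts was not tested. Protein features were not run.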
